A study of Rattus norvegicus with 12 samples.

Results

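Regulators of G protein signalling, the Rgs genes, were examined in the CA1 field of the rat hippocampus through 10 probe sets of 8 genes, of 15866 probe sets on the array other than controls. The members were every probe set whose only annotated gene symbol was Rgs2, Rgs4, Rgs5, Rgs7, Rgs8, Rgs10, Rgs12 or Rgs14. The array carried 15 Rgs genes in 19 probe sets, and the 8 were chosen by their signal, the genes with the highest mean level. Just inside that boundary lay Rgs8, with a mean over all arrays of 4.84 (log2), and just outside lay Rgs9 at 4.48 and the brightest of 3 Rgs3 probe sets at 4.30. The 5 others, Rgs1, Rgs16, Rgs18, Rgs19 and Rgs22, had means between 1.74 and 3.05 and were too dim to test. Signals of different probe sets depend on their probes, so where members are called bright or dim this orders their signal and not the amount of transcript.

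RNA came from young male Long-Evans rats aged 3 to 4 months, 1 Affymetrix RAE230A array per sample, with 6 arrays after spatial learning and 6 after the control task. Every rat had first been through standard water maze training, and 2 to 3 weeks later swam 8 trials at 8-minute intervals in a new maze. For the spatial learning group (Learning Activated in the titles) the visible platform stayed in place and orienting cues were present. For the control task group the visible platform moved between trials and informative cues were lacking. All rats had a 90-second probe trial without a platform 1 hour after training, and tissue was dissected straight afterwards. The comparison asks which transcripts differ once rats could use cues to learn where the platform stood, with the number and spacing of trials matched.

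Heterotrimeric G proteins carry signals from receptors for neurotransmitters and hormones, and stay active for as long as their alpha subunit holds GTP. RGS proteins share a domain, the RGS box, that speeds GTP hydrolysis by the alpha subunit and so shortens the signal. In the hippocampus they act on signalling through metabotropic glutamate, muscarinic, adenosine, GABA-B, serotonin and opioid receptors. Rgs2, Rgs4, Rgs5 and Rgs8 are small proteins with little beyond the box, Rgs7 works as a complex with the G protein beta subunit Gnb5, and Rgs12 and Rgs14 add Ras-binding and GoLoco segments.

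Of the 8 genes, 5 lie on rat chromosome 13 in the GRCr8 annotation, where Rgs4 and Rgs5 are direct neighbours among protein-coding genes. RefSeq promoter windows, 250 bases before to 50 after the annotated start on GRCr8, are printed for 3 genes: Rgs4 and Rgs7, which had the largest differences below and above 0, and Rgs2, known in rat hippocampus as a transcript induced by neuronal activity. Capitals mark matches, on either strand, to the CRE half-site TGACG, the TATA box TATAAA, the CCAAT box, the GC box GGGCGG and the E-box CACGTG.
Rgs4, chr13:84475835-84476134, minus strand: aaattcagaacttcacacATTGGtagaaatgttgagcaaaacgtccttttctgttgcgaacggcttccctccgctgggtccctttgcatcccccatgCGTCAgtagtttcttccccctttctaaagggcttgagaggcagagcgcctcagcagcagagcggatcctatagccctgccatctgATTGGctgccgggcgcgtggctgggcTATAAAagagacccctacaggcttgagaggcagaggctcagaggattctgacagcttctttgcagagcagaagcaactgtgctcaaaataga
Rgs2, chr13:58352617-58352916, minus strand: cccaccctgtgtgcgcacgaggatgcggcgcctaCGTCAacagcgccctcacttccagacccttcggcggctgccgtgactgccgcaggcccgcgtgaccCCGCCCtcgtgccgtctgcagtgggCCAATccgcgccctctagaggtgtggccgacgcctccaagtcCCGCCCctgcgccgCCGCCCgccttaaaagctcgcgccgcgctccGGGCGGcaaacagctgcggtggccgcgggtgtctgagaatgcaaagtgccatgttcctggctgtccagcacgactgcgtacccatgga
Rgs7, chr13:89941001-89941300, minus strand: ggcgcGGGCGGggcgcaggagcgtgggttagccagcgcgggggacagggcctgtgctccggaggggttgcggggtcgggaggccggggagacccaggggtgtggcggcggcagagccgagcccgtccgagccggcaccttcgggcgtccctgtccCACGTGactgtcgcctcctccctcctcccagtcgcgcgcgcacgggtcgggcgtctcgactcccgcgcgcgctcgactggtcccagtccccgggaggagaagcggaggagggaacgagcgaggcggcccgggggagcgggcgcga

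The Rgs4 window held TATAAA 42 bases before the start, a TGACG on the opposite strand at 153 bases and 2 CCAAT boxes on the opposite strand. The Rgs2 window held TGACG on the opposite strand at 216 bases, 1 CCAAT box and 4 GC boxes, and no TATAAA. The Rgs7 window, with 77.3% G or C against 52.7% in Rgs4, held 1 GC box and 1 E-box. Rgs2 and Rgs4 were the members with TGACG, which 21.2% of 33469 windows of the same length hold, and Rgs4 was the member with TATAAA, which 14.2% hold. The full CRE, TGACGTCA, which contains the half-site, was in 0 of the 8 windows and 1.83% of all, and the AP-1 motif TGANTCA was in that of Rgs12, against 7.33% of all. These matches are letters in a window and were not tested for binding.

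The groups had closely alike arrays, with correlations of 0.996 to 0.998 between any 2. In a limma fit over 9610 probe sets with a mean of at least 4, 0 passed an adjusted p of 0.05, which is 0% of those tested, and 1048 had an unadjusted p under 0.05. Markers of the neurons themselves were bright, the per-array mean of 8 neuronal markers lying between 11.02 and 11.24 after spatial learning and between 10.94 and 11.25 after the control task. CA1 markers were higher in the spatial learning group for 6 of 7 genes, where 53.7% of all tested probe sets were higher and 46.3% lower. Their list mean was 10.73 ± 0.10 after spatial learning and 10.55 ± 0.10 after the control task (SD, n = 6 each). Per-array means were 10.55 to 10.84 in the spatial learning group, against 10.46 to 10.75 in the control task group. At an unadjusted limma p under 0.05 there were 3 of the 7, all higher, and 0 passed after adjustment. Dentate gyrus markers were lower for 4 of 5 tested genes, with per-array means of 7.30 to 7.61 in the spatial learning group, against 7.33 to 7.83 in the control task group, and Dsp, Tdo2 and Glp1r were too dim to test. Astrocyte markers were lower for 10 of 11 genes, with list means of 10.08 ± 0.06 after spatial learning and 10.16 ± 0.06 after the control task (SD, n = 6 each), and 0 passed. CA3 markers were higher for 2 and lower for 3 of 5 tested genes, and Bok, singled out after its value was seen, differed by 0.37 (limma adjusted p = 0.216). In 3 arrays transcripts of neighbouring tissue stood out. The choroid plexus marker mean was 5.18 to 5.58 after spatial learning and 5.54 to 8.18 after the control task, highest in control replicates 3 and 6, and the meningeal marker mean was highest in control replicate 6 (7.95) and spatial learning replicate 6 (7.70), so results are also given without these 3 arrays. The gap between the 3' and 5' probe sets of the hexokinase control transcript is a sign of RNA integrity, a larger gap going with less intact RNA. It was 1.65 ± 0.11 after spatial learning and 1.48 ± 0.08 after the control task (log2, SD, n = 6 each, exact permutation p = 0.00433). Per-array gaps were 1.55 to 1.82 after spatial learning and 1.35 to 1.55 after the control task, so the gap nearly separated the groups. Its part in a difference cannot be told apart from that of the task.

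Among the members, Rgs4 showed the largest difference. Both of its probe sets were lower in the spatial learning group, by 0.47 and 0.67 on the log2 scale, and neither passed the test over all probe sets. The brighter one, 1368505_at, ranged from 8.26 over a median of 8.53 to 8.85 in the spatial learning group, and from 8.70 over 9.07 to 9.30 in the control task group. Of the 6 spatial learning arrays 4 lay below the lowest control, and 4 of the 6 controls lay above the highest spatial learning array. Its means were 8.55 ± 0.21 after spatial learning and 9.02 ± 0.25 after the control task (SD, n = 6 each), a difference of -0.47 with a 95% interval from -0.73 to -0.21 (SE 0.12, limma adjusted p = 0.310). The dimmer one, 1368506_at, ranged from 7.40 over a median of 7.77 to 8.14 in the spatial learning group, and from 8.14 over 8.40 to 8.71 in the control task group. Here 5 of 6 spatial learning arrays lay below every control, and spatial learning replicate 5 stood level with control replicate 6. The means were 7.75 ± 0.31 and 8.42 ± 0.26 in spatial learning and control task arrays, a difference of -0.67 with an interval from -0.99 to -0.36 (SE 0.15, limma adjusted p = 0.237).

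**Figure D1:**
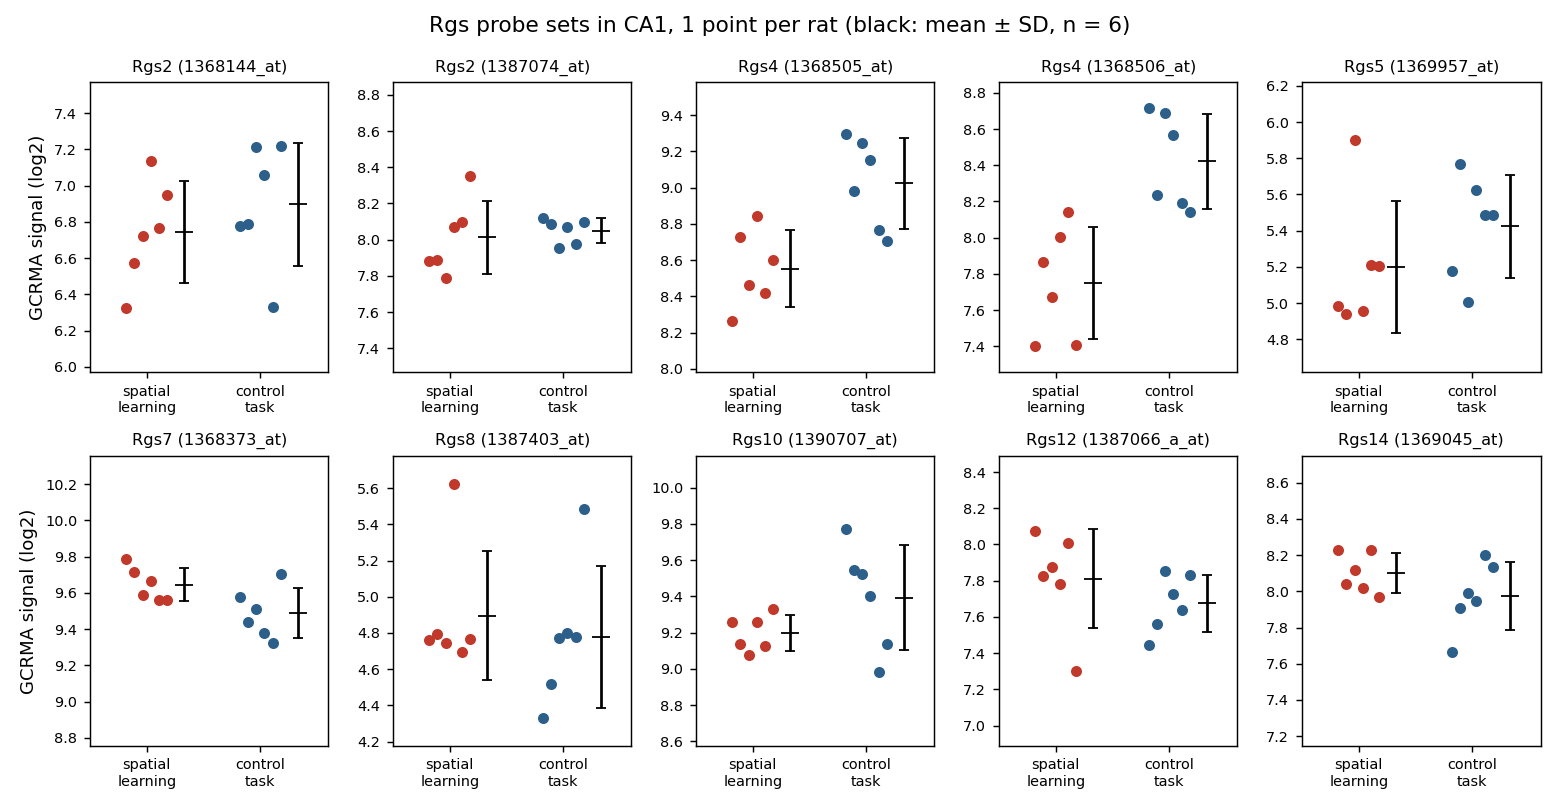
Signal of the 10 Rgs probe sets (GCRMA, log2) in each rat, spatial learning in red and control task in blue, with the group mean ± SD in black (n = 6 each); every panel spans 1.6 log2 units. In the dimmer Rgs4 probe set 5 of 6 spatial learning points lie below all controls, whereas the groups overlap widely in Rgs2, Rgs8 and Rgs12.

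These intervals are not adjusted for the number of probe sets examined. Differences at least as large as that of the dimmer Rgs4 probe set, in either direction, were found in 0.187% of all tested probe sets, and at least as large as that of the brighter one in 0.499%. The members were taken from measured values, and the difference of Rgs4 was known when the list was drawn up, so these values describe Rgs4 and carry no support of their own. Across the 12 arrays, after removing the group means, the brighter probe set followed the mean of the dentate markers (Pearson r = 0.77, permutation p = 0.00515, Spearman rho = 0.75, permutation p = 0.00698; adjusted over 120 relations 0.206 and 0.419), and r was 0.66 without the 2 arrays farthest from the median. For the dimmer one r was 0.64 and rho 0.58 (permutation p = 0.0285 and 0.0521, adjusted 0.342 and 0.568), and r was 0.54 without 2 arrays. With the dentate marker mean as a covariate, chosen after the values were seen, the difference of the brighter and of the dimmer probe set was -0.28 (limma adjusted p = 0.526) and -0.48 (limma adjusted p = 0.526). With the CA1 marker mean as the covariate instead they were -0.27 and -0.67, with limma adjusted p of 0.707 and 0.484. Without the 3 arrays named above they were -0.51 and -0.61 (limma adjusted p = 0.198 and 0.185). In bulk tissue, fewer cells that carry a transcript and less of it per cell cannot be told apart.

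Rgs2, which favours the Gq class of alpha subunits, had small differences on both of its probe sets. The brighter one, 1387074_at, ranged from 7.79 over a median of 7.98 to 8.35 after spatial learning and from 7.95 over 8.08 to 8.12 after the control task. The spatial learning arrays thus spread on both sides of the controls, 3 below the lowest and 1 above the highest. The difference was -0.04, with an interval from -0.22 to 0.14 (limma adjusted p = 0.897). The dimmer one, 1368144_at, ranged from 6.32 over 6.74 to 7.13 and from 6.33 over 6.92 to 7.22 in spatial learning and control task arrays, with a difference of -0.15 and an interval from -0.50 to 0.20 (limma adjusted p = 0.767). On leaving out 1 array it lay between -0.068, without spatial learning replicate 1, and -0.27, without control replicate 5, and without the 3 arrays named above it was -0.034. A difference of the size found with the brighter Rgs4 probe set lies within the interval of the dimmer Rgs2 probe set and outside that of the brighter.

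Rgs7, the member that pairs with Gnb5 and acts mainly on Gi and Go, was the one with the smallest p on the higher side. It ranged from 9.56 over a median of 9.63 to 9.79 in the spatial learning group and from 9.32 over 9.47 to 9.71 in the control task group. All 6 spatial learning arrays lay above the control mean, 2 of them above the highest control, and 4 controls lay below the lowest spatial learning array. The difference was 0.16, with an interval from 0.02 to 0.30 (SE 0.07, limma adjusted p = 0.434). With the CA1 marker mean as a covariate it was 0.03, and without the 3 arrays named above 0.23 (limma adjusted p = 0.217). Gnb5, its partner, differed by 0.07 (SE 0.06, limma adjusted p = 0.688).

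Rgs12 and Rgs14, the large members with GoLoco segments that hold Gi alpha subunits in their GDP form, were both slightly higher after spatial learning and did not pass. Rgs12 ranged from 7.30 over 7.85 to 8.08 in spatial learning arrays and from 7.45 over 7.68 to 7.85 in control task arrays, a difference of 0.14 (SE 0.12, limma adjusted p = 0.705). Spatial learning replicate 6 was the lowest array of all, while 3 of the other 5 stood above every control. Without the 3 arrays named above, replicate 6 among them, the difference was 0.32 (limma adjusted p = 0.176), and with the CA1 marker mean as a covariate it was -0.19 (limma adjusted p = 0.696). Among the 120 relations of members to marker lists and to the hexokinase gap, that of Rgs12 to the CA1 marker mean had the smallest p, with r = 0.85 and rho = 0.85 (permutation p = 0.00053 and 0.00105, adjusted 0.0636 and 0.126), and r was 0.87 without 2 arrays. The oligodendrocyte marker mean came next, at r = -0.79 and rho = -0.71 (permutation p = 0.0022 and 0.0119, adjusted 0.132 and 0.474), or r = -0.78 without 2 arrays.

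Rgs14 is best known in mouse as a protein of CA2 pyramidal neurons, the field beside CA1. It ranged from 7.97 over 8.08 to 8.23 after spatial learning and from 7.66 over 7.97 to 8.20 after the control task. The groups overlapped except that 3 controls lay below and 2 spatial learning arrays above the other group, and the difference was 0.13 (SE 0.08, limma adjusted p = 0.611). Without control replicate 1 it was 0.064, and without the 3 arrays named above 0.20. The CA2 markers beside it did not move one way, Pcp4 differing by -0.46 (SE 0.14, limma adjusted p = 0.388), Adcy5 by 0.20, Necab2 by 0.04 and Amigo2 by -0.02. Of 9 CA2 markers on the array 5 were too dim to test, among them Ntf3 and Cacng5. The per-array CA2 mean was 7.77 to 8.02 after spatial learning and 7.70 to 8.21 after the control task. After removing group means Rgs14 correlated with it at r = 0.59 and rho = 0.36 (permutation p = 0.0454 and 0.254, adjusted 0.419 and 0.826), or r = -0.17 without 2 arrays. With the CA1 marker mean Rgs14 correlated at r = 0.62 and rho = 0.64 (permutation p = 0.0322 and 0.0302, adjusted 0.351 and 0.557), or r = 0.54 without 2 arrays. Neither relation passed after adjustment.

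Rgs10, a small member expressed in neurons and, in mouse, strongly in microglia, had a difference of -0.20 (SE 0.11, limma adjusted p = 0.545). It ranged from 9.08 over 9.20 to 9.33 in the spatial learning group and from 8.98 over 9.46 to 9.77 in the control task group. The controls fell apart, 4 above every spatial learning array and the other 2, replicates 5 and 6, within or below their range. Without control replicate 1 it was -0.12, and with the dentate marker mean as a covariate -0.03. Microglial markers were lower in 9 of 10 tested genes, some of them barely, where 46.3% of all tested probe sets were lower. The brightest were Ctss at 0.003, Csf1r at -0.01, C1qa at -0.18 and P2ry12 at -0.43 (limma adjusted p = 0.388 for P2ry12). The list mean was 7.13 ± 0.14 after spatial learning and 7.24 ± 0.17 after the control task (SD, n = 6 each). Cx3cr1 was too dim to test, and after removing group means Rgs10 correlated with the microglial mean at r = -0.11 and rho = -0.06 (permutation p = 0.749 and 0.853, adjusted 0.976 and 0.978), or r = -0.32 without 2 arrays.

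Rgs5, in mouse brain a marker of the pericytes and smooth muscle cells of vessels, lay between 4.94 and 5.90 with a median of 5.09 in spatial learning arrays and between 5.01 and 5.77 with a median of 5.48 in control task arrays. The difference was -0.22 (SE 0.17, limma adjusted p = 0.661), and spatial learning replicate 3 stood highest of all 12. Without that replicate the difference was -0.36 (limma adjusted p = 0.383). Endothelial and mural markers were higher in 7 of 10 tested genes, where 53.7% of all tested probe sets were higher. The brightest were Slco1c1 at 0.09, Cldn5 at 0.10, Slco1a4 at 0.06 and Acta2 at -0.19. The per-array mean was 6.32 to 6.75 after spatial learning and 6.38 to 6.80 after the control task. Among other mural markers Pdgfrb differed by 0.03, Vtn by 0.15 and Myh11 by -0.14, while Kcnj8, Abcc9 and Higd1b were too dim to test. The correlation of Rgs5 with the list's mean was weak and did not pass, at r = 0.30 and rho = 0.28 (permutation p = 0.350 and 0.380, adjusted 0.651 and 0.828), or r = 0.26 without 2 arrays.

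Rgs8, which speeds the response of G protein-gated potassium channels, was the member nearest to background. Its values ran from 4.69 over 4.76 to 5.62 after spatial learning and from 4.33 over 4.77 to 5.48 after the control task, a difference of 0.12 (SE 0.19, limma adjusted p = 0.856). A single array in each group, spatial learning replicate 4 and control replicate 6, stood far above the rest. Without spatial learning replicate 4 the difference was -0.03.

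**Figure D2:**
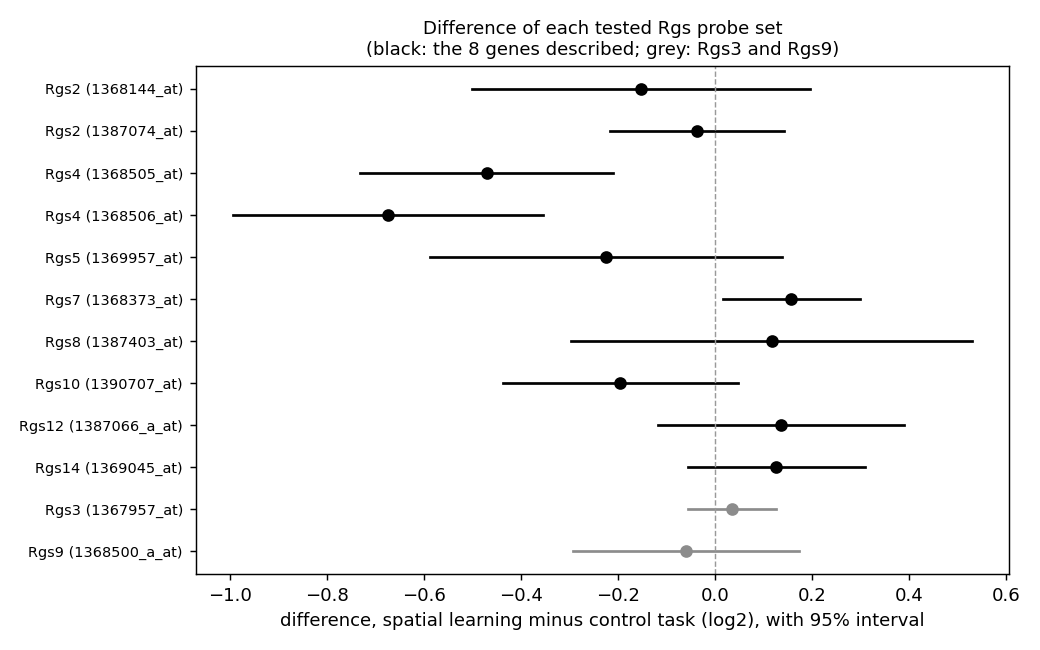
Difference, spatial learning minus control task (log2), of the 12 tested Rgs probe sets with its unadjusted 95% interval; black marks the 8 genes described and grey Rgs3 and Rgs9. The intervals of both Rgs4 probe sets lie below 0 and that of Rgs7 just above it, and all others span 0.

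Of the 10 member probe sets 6 lay lower in the spatial learning group, where 46.3% of all tested did, and 4 lay higher, where 53.7% did. Their median difference was -0.09, against 0.01 over all tested probe sets. By limma 0 of 10 passed an adjusted p of 0.05, and so did 0% of all tested. At an unadjusted p under 0.05 there were 3 members, where 10.9% of all tested reached that level: 2 lower, both of Rgs4, where 4.55% of all tested were lower, and 1 higher, Rgs7, where 6.36% were higher. By the exact rank-sum test 0 passed after adjustment, and 2 had an unadjusted p under 0.05, again both of Rgs4 (p = 0.0152 and 0.00433, exact), where 9.32% of all tested did. Since measured values chose the members, nothing is read from these counts. With the hexokinase gap as a covariate the differences of the brighter and dimmer Rgs4 probe sets were -0.59 and -0.60, that of Rgs10 was -0.33, that of Rgs12 0.35, that of Rgs14 0.26 and that of Rgs7 0.09, with limma adjusted p of 0.721 to 0.857. Under that covariate the brighter and dimmer Rgs2 probe sets were at -0.15 and -0.36, Rgs5 at -0.12 and Rgs8 at 0.17, with limma adjusted p of 0.788 to 0.936. The gap nearly followed the groups, so these fits cannot separate it from the task. In none of the 10 were the groups fully apart, as they were on the lower side in 0.271% and on the higher side in 0.364% of all tested probe sets. The other Rgs genes that could be tested lay near 0, Rgs3 at 0.03 (SE 0.04) and Rgs9 at -0.06 (SE 0.11), with limma adjusted p of 0.799 and 0.874.

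The SD between arrays of a group was above the median of all tested probe sets for 9 of the 10 members. It was 0.38 for Rgs8, 0.33 for Rgs5, 0.31 and 0.15 for the Rgs2 probe sets, 0.23 and 0.29 for those of Rgs4, 0.22 for Rgs12, 0.22 for Rgs10, 0.16 for Rgs14 and 0.12 for Rgs7. The median over all tested probe sets was 0.12, close to the value for Rgs7. Rgs8 and Rgs5, which varied most, were also the dimmest members.

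The 2 probe sets of Rgs4, which the annotation assigns to the same target sequence, varied together between animals of a group. After removing the group means r was 0.67 (permutation p = 0.0206, adjusted over the 2 genes with a pair 0.0411) and rho 0.62 (permutation p = 0.0375, adjusted 0.0750). Within the control task group alone r was 0.96, and within the spatial learning group 0.40. Without the 2 arrays farthest from the median, control replicate 6 and spatial learning replicate 1, r was 0.51 and did not pass (adjusted permutation p = 0.261). Fewer arrays were left in that test, so it cannot show that the agreement depends on those 2. Without the 3 arrays named above, control replicate 6 among them, r was 0.71. The Rgs2 pair had r = 0.41 and rho = 0.43 (permutation p = 0.184 and 0.168, adjusted 0.184 and 0.168), and r = 0.27 without 2 arrays. For comparison, the median r was 0.23 over the 803 genes with exactly 2 tested probe sets, with an interquartile range of -0.06 to 0.48.

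Between different Rgs genes 43 pairs of probe sets were compared in the same way. Rgs14 ran opposite to Rgs10 (r = -0.84, permutation p = 0.00064, adjusted 0.0258; rho = -0.78, permutation p = 0.00428, adjusted 0.0920) and opposite to the brighter Rgs4 probe set (r = -0.81, permutation p = 0.0012, adjusted 0.0258; rho = -0.80, permutation p = 0.00294, adjusted 0.0920). Both passed by r and not by rho, and no other pair passed by either. Against the brighter Rgs4 probe set the relation was alike in both groups, with r = -0.82 in spatial learning arrays and -0.82 in control task arrays, and was -0.75 without 2 arrays and -0.86 without the 3 arrays named above. Against the dimmer one r was -0.35. Against Rgs10 r was -0.42 in spatial learning arrays and -0.95 in control task arrays, and -0.61 without control replicates 1 and 5. The brighter Rgs4 probe set and Rgs10 ran together at r = 0.66 and rho = 0.58 (permutation p = 0.0170 and 0.0522, adjusted 0.195 and 0.562), or 0.73 without 2 arrays. The dentate marker mean moved with the same 3 genes, at r = 0.71 with Rgs10 (rho = 0.60, permutation p = 0.00734 and 0.0429) and r = -0.68 with Rgs14 (rho = -0.65, permutation p = 0.0141 and 0.0259). These were 0.40 and -0.37 without 2 arrays, and none passed after adjustment over 120 relations. All of these values come from the same 12 arrays.

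**Figure D3:**
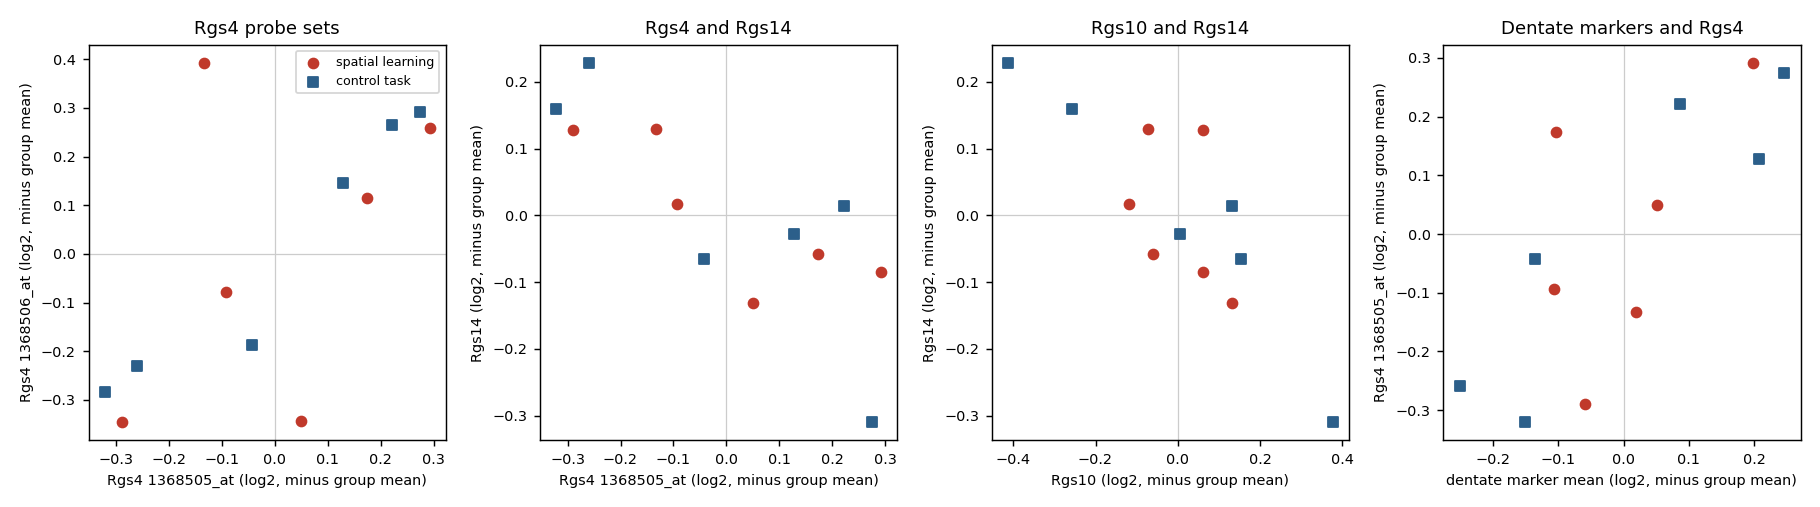
Deviation of each array from its group mean (log2), 1 point per rat, for the 2 Rgs4 probe sets, Rgs4 against Rgs14, Rgs10 against Rgs14, and the dentate marker mean against Rgs4. Red circles are spatial learning and blue squares control task; r is 0.67, -0.81, -0.84 and 0.77 from left to right.

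The transcripts whose pattern across the 12 arrays was most like each member, by r of group-centred values among about 8010 single-symbol probe sets of other genes, were picked for that r, which is therefore a description. For Rgs4 these were Rcan2, an inhibitor of calcineurin, at r = 0.94 and rho = 0.97, Smc1a at 0.90 and 0.80, and Lrrc42 at 0.88 and 0.87. Rcan2 kept r = 0.89 without the 2 arrays farthest from the median, and its own difference between groups was -0.06 (limma adjusted p = 0.803). For Rgs12 they were Sult5a1 at r = 0.92, Sv2b, a synaptic vesicle protein, at 0.89, and Gria2, an AMPA receptor subunit, at 0.89. For Rgs14 they were Zw10 at 0.93, She at 0.85 and Fchsd2 at 0.84 (0.47 without 2 arrays), and for Rgs10 Srsf2 at 0.93, Pak1 at 0.88 and Uqcr10 at 0.87. Rgs7 was most like Lyrm1 at 0.90, Mmd at 0.90 and Ppil4 at 0.89, Rgs5 like Alkbh5 at 0.94, Rps9 at 0.90 and Ccnt2 at 0.87, and Rgs2 like Nlgn2 at 0.91, Zfp428 at 0.88 and C1h11orf98 at 0.87 (0.52 without 2 arrays). Without 2 arrays the r of the other transcripts named for these 7 genes lay between 0.66 and 0.91. For Rgs8 these were St6gal1 at 0.92, Lpcat1 at 0.91 and Olfml2b at 0.91, with rho of 0.50, 0.66 and 0.85. Without spatial learning replicate 4 and control replicate 6 their r was 0.42, 0.52 and 0.49.

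The G proteins on which RGS proteins act, and their receptors and effectors, showed no member past the test in any of 6 lists. Each gene entered through its brightest probe set. Of all tested probe sets 53.7% were higher and 46.3% lower. Of 7 tested alpha subunits 5 were lower, with a median difference of -0.10. Gnai2, a Gi subunit, stood at 9.96 ± 0.11 after spatial learning and 10.08 ± 0.05 after the control task (SD, n = 6 each), a difference of -0.12 (limma adjusted p = 0.434). Gnai1 differed by -0.12, Gnao1, the main Go subunit of brain, by -0.12, and Gnaz by 0.03, with limma adjusted p of 0.599 to 0.877. Gnaq, the subunit on which Rgs2 acts, differed by -0.10 (SE 0.20). The list of beta and gamma subunits had 10 tested genes, among them Rack1 at 0.01, a scaffold protein that is not itself a G protein subunit. Of these 10 genes 7 were higher, Rack1 included, with a median of 0.02. Gng5 at -0.23 (limma adjusted p = 0.447) came first, followed by Gngt1 at 0.13, Gnb1 at -0.08 and Gnb2 at -0.06.

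Among 18 tested receptors coupled to Gi, Go or Gq 10 were lower, where 46.3% of all tested probe sets were, with a median of -0.02. Those with the smallest p were Chrm1, the M1 muscarinic receptor, at -0.20, Sstr1, a somatostatin receptor, at -0.56 (SE 0.22), Gabbr2, a GABA-B receptor subunit, at -0.21 and Sstr2 at -0.21, with limma adjusted p of 0.423 to 0.509. The 20 receptors too dim to test included Grm5, Oprm1 and Drd2. Of 12 effectors 7 were higher, where 53.7% of all tested probe sets were, with a median of 0.07. Adcy5, an adenylyl cyclase, at 0.20, Kcnj6, a G protein-gated potassium channel, at 0.10, Cacna1b, a presynaptic calcium channel, at 0.12 and Adcy6 at -0.18 came first, with limma adjusted p of 0.429 to 0.558. RGS partners and other G protein regulators had a median of 0.01, with Nsf at -0.08, Ric8a, a chaperone of alpha subunits, at 0.11, Gpsm1 at -0.12 and Gnb5 as given above. The remaining RGS-box proteins and receptor kinases had a median of 0.01, with Axin2 at -0.09, Axin1 at 0.11 and Grk6 at 0.03. The receptor kinases Grk1, Grk3, Grk4 and Grk5 were too dim to test.

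**Figure D4:**
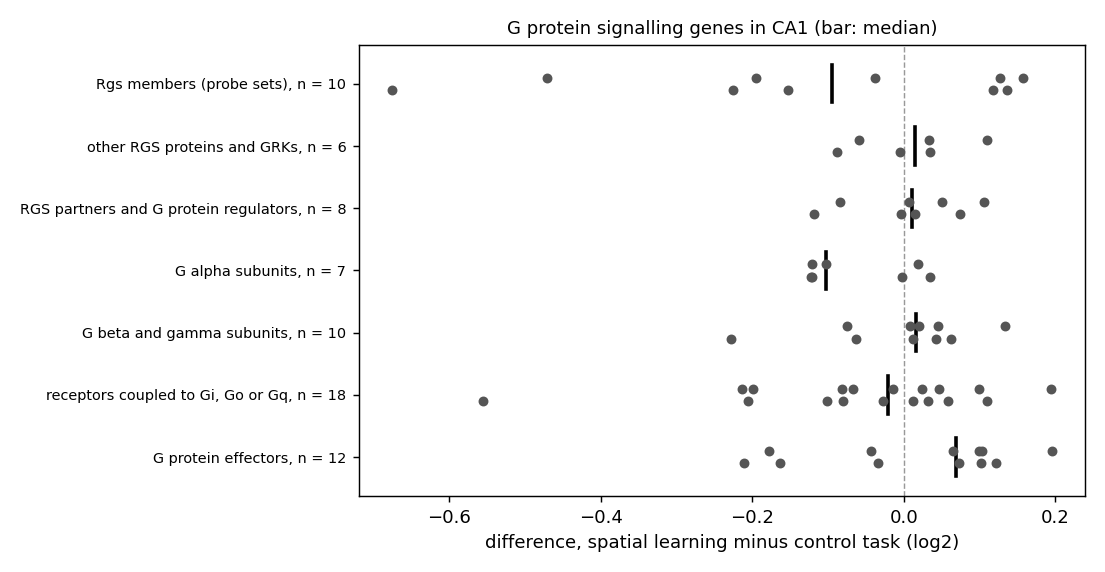
Difference, spatial learning minus control task (log2), of each tested gene in 6 lists of G protein signalling genes and of the 10 Rgs member probe sets, with the median of each row as a bar. Medians of the 6 lists lie between -0.10 and 0.07, and both Rgs4 probe sets and Sstr1 lie farthest to the left.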

How the data were processed

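RNA from microdissected CA1 was measured on 12 arrays. The authors deposited 1 table of log2 probe set values. GCRMA, which corrects background by probe sequence, normalizes between arrays and summarises probes, is named in the submitters' processing notes, with no version or settings given in the sources used here. The log2 scale of the deposited values was settled from their range, 0.134 to 14.8. GCRMA equalises the arrays, so a change in total RNA cannot be seen, and dim differences near background are compressed. Depth has no counterpart on arrays, and 6 arrays per group limit the precision. The titles call the arrays biological replicates.

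Probe sets were named from the platform annotation, which can be old: 12783 have 1 symbol, 312 several and 2771 none. The symbols of all 10 member probe sets matched through Entrez identifiers to RefSeq. After removal of the 57 controls, 9610 of 15866 probe sets averaged 4 or more on the log2 scale across the 12 arrays and were tested with limma 3.58.1 in R 4.3.3 (group as the only term, eBayes with trend, 2-sided) and Benjamini-Hochberg adjustment over all of them at 0.05. Intervals are 95%. Correlations used 100000 permutations of group-centred values (scipy 1.17.1), and list genes their brightest probe set. Where 2 arrays were left out of a correlation, they lay farthest from the median of 1 of the 2 measures. Extremes of the other measure could stay. The procedure was tested on simulated data. All members were named, with up to 4 genes of smallest p from each signalling list, up to 4 of highest level from marker lists and the 3 transcripts most like each member. Gnaq, Bok, Rack1, Pdgfrb, Vtn, Myh11 and the dim genes were named outside this rule. Members and lists were chosen with earlier results of these data known. Alternatives were the filter, eBayes options, array centring, quantile normalization, a replicate block, covariates, arrays left out and an exact rank-sum test. Neither scan dates nor batches were used here.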

Additional observations from a re-analysis of the deposited data

Results flagged for a closer look

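In 20 groups of 6 arrays, the 2 groups of each member probe set, an array was looked for whose gap to its neighbour takes up more than 0.625 of the group's range. Chance alone marks about 1 group in 20, and 2 were marked. Rgs8 was at 5.62 in spatial learning replicate 4, against at most 4.79 in the other spatial learning arrays. Rgs5 was at 5.90 in spatial learning replicate 3, against at most 5.21 in the other spatial learning arrays.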

How the results depend on the processing

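The 10 member differences were recomputed under 24 alternatives, giving 238 values, of which 0 passed an adjusted p of 0.05 and 230 kept their direction. The changes of sign were Rgs2 at 0.0193 on its dimmer and 0.0225 on its brighter probe set with the dentate marker mean as a covariate, and Rgs2 at 0.0810 on its brighter probe set, Rgs8 at -0.183, Rgs12 at -0.188 and Rgs14 at -0.0386 with the CA1 marker mean, both covariates being chosen after seeing the data. Leaving out 1 array gave -0.105 to 0.00731 for the brighter Rgs2 probe set and -0.0286 to 0.258 for Rgs8, the signs turning without spatial learning replicates 3 and 4. The cause was not tested. The brighter Rgs4 probe set kept to -0.59 to -0.27 and the dimmer to -0.68 to -0.48 over the 12 alternatives that did not leave out a single array. Their lowest limma adjusted p on leaving out 1 array were 0.111 and 0.0938, both without control replicate 6. Over all probe sets 0 passed, but 5 did without the 3 choroid plexus or meninges arrays, and 0 to 3 on leaving out 1 array, the 3 coming without control replicate 6. None was a member. The agreement of the Rgs4 probe sets fell to r = 0.51 without 2 arrays, 10 of 12 being left. Replicate numbers are shared between the groups, and same-numbered arrays correlated at -0.17 to 0.08 after removing group means, with 0 of 6 pairs over 0.1 and 1 of 6 best with its own number. With the replicate block the Rgs4 differences were -0.47 and -0.67 (limma adjusted p = 0.539 and 0.461), and 0 probe sets passed.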

Other observations

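Some G protein signalling genes had further tested probe sets that differed from the brightest one used above, all singled out after their values were seen. Gabbr1, a GABA-B receptor subunit, differed by 0.05 on its brightest probe set and by -0.75, -0.04 and 0.08 on the others. Gnb1, a beta subunit, differed by -0.08 on its brightest and by -0.17 and -0.56 on the others. Gna12 differed by 0.02 and -0.39, Htr2c by -0.10 and -0.43, and Adora1, the A1 adenosine receptor, by -0.01 and -0.28, brighter probe set first. Over the 15 genes of the 6 signalling lists with at least 2 tested probe sets, the dimmest gave the lower difference in 9. Over 934 other genes it did in 57.5%. In both Rgs2 and Rgs4 the dimmer probe set also gave the lower difference.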
